A study of Mus musculus with 6 samples.

Results

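Mitochondrial import genes encode the machinery that brings proteins made in the cytosol into mitochondria, and they were followed here in the soleus (Sol), a muscle rich in slow and oxidative fibers, after voluntary wheel running (VWR) with or without LSD1 in muscle. The genes were chosen by symbol, with earlier results of these data known. Taken were every symbol that starts with Timm or Tomm followed by a digit, the Samm, Mtx and Grpel genes, and Pmpca, Pmpcb, Hspd1, Hspe1, Hspa9, Pam16, Dnajc19 and Dnajc15. This gave 39 of the 24411 genes listed, of which 37 were among the 12828 genes that passed the expression filter.

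LSD1 is a histone demethylase encoded by Kdm1a. The series held 3 WT and 3 LSD1-mKO male C57BL/6 mice with 1 library each, all 8 weeks old when VWR began, housed singly and given a wheel for 38 days. LSD1-mKO mice were Lsd1 flox/flox and carried a tamoxifen-inducible Cre (CreERT2) under the human ACTA1 promoter, which is active in muscle cells, so that the other cells of the muscle were not targeted. WT mice were Lsd1-floxed without CreERT2, and the 2 genotypes were injected alike with tamoxifen (75 mg/kg, 5 days) once familiarization of 3 days was over. Both groups had VWR and tamoxifen, so neither the effect of running nor that of the drug can be read from these 6 libraries. Totals ran from 8940206 to 13798059 estimated counts per library, and the values below are TMM-scaled CPM, a gene's counts brought to a common library size, unless TPM is named. Kdm1a was at 40.5, 38.2 and 33.6 CPM in WT replicates 1 to 3 and at 14.6, 16.6 and 16.6 CPM in LSD1-mKO replicates 1 to 3 (log2 fold change -1.23 ± 0.11, standard error, edgeR adjusted p = 0.0160). All 3 LSD1-mKO mice were below all 3 WT mice, the direction the labels imply, although without WT replicate 2, or without any single LSD1-mKO replicate, the adjusted p was above the threshold of 0.05. The summed level of the 6 slow fiber markers was 26310 to 32480 CPM in WT and 26680 to 33100 CPM in LSD1-mKO, and that of the 6 fast fiber markers 32470 to 48610 and 31390 to 41010 CPM.

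As background, nearly all mitochondrial proteins are encoded in the nucleus and enter through the TOM complex of the outer membrane. From there, proteins with a cleavable presequence pass the TIM23 channel and are pulled into the matrix by a motor built around the Hsp70 chaperone Hspa9, their presequence is cut off by the peptidase Pmpca/Pmpcb, and many fold inside the Hspd1/Hspe1 chaperonin. Carrier proteins are escorted by small TIM chaperones to the TIM22 complex, and barrel-shaped outer membrane proteins are inserted by the SAM complex. Oxidative muscle holds many mitochondria and depends on this supply.

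None of the 37 import genes tested passed the threshold in either direction (edgeR quasi-likelihood test, Benjamini-Hochberg adjusted p under 0.05), where over all genes 0.0078% were higher and 0.0078% lower. At an unadjusted p under 0.05 the count was 0 of 37 higher and 0 of 37 lower, beside 3.52% and 2.88% of all genes tested, or 6.4% in either direction. DESeq2 and limma voom also called 0 import genes, adjusted or unadjusted, where DESeq2 had 2.72% of all genes higher and 1.78% lower at an unadjusted p under 0.05. The share of all genes was not taken for limma voom or for DESeq2 after adjustment. Those counts are therefore not read against a background. The smallest unadjusted edgeR p among the import genes was 0.0550. In the fit, 17 were higher in LSD1-mKO and 20 lower, so that 45.95% were higher, beside 45.2% of all genes tested (47.1% with DESeq2). The median log2 fold change was -0.01, with quartiles at -0.08 and 0.07, and over all genes tested it was -0.02.

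For 36 of the 37 genes the 95% confidence interval of the log2 fold change lay within 1.5-fold in either direction, which held for 63.3% of all genes tested and for 87.27% of the 7275 genes with a mean of 15 CPM or more. For 19 of the 37 it lay within 1.25-fold, beside 2947 of the 12828 genes tested and 2873 of the 7275. The exception at 1.5-fold was Tomm6os, an antisense transcript at about 1 CPM. In TPM, which divides by transcript length, the summed level of all 39 genes was 3849, 3880 and 3593 in WT and 3602, 3839 and 3878 in LSD1-mKO. The summed TPM was therefore spread as widely within each group as between them, and the group means were 3774 in WT and 3773 in LSD1-mKO. Because whole muscle was sampled, fewer cells of a type and less RNA per cell cannot be told apart.

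**Figure D1:**
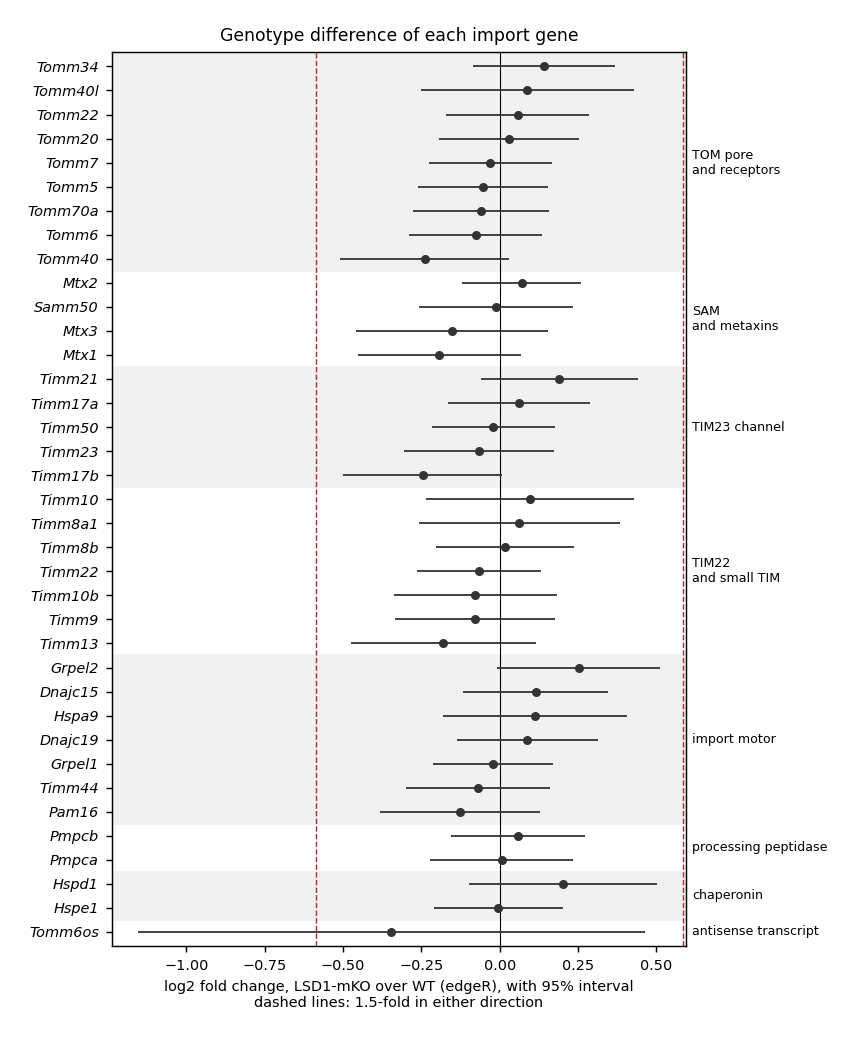
Log2 fold change of each of the 37 import genes tested, LSD1-mKO over WT (x axis, points; lines are 95% confidence intervals from edgeR, n = 3 mice per group), ordered by role, with dashed lines at 1.5-fold. Values run from -0.35 for Tomm6os to 0.25 for Grpel2, and the interval of Tomm6os alone crosses a dashed line.

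At the outer membrane, 4 of the 9 TOM genes tested were higher in the fit and 5 lower, and their median log2 fold change was -0.03. Tomm40, the pore through which nearly all precursors pass (chromosome 7, 19701313 to 19715438, minus strand, GRCm38), was at 63.5, 52.2 and 48.5 CPM in WT and at 44.5, 50.2 and 44.1 CPM in LSD1-mKO. LSD1-mKO replicates 1 and 3 were below every WT mouse and LSD1-mKO replicate 2 was between WT replicates 2 and 3, so the groups overlapped. Its log2 fold change was -0.24 (95% interval -0.51 to 0.03, edgeR adjusted p = 0.7664), and without WT replicate 1 it was -0.12. The Tomm40-like gene Tomm40l, which encodes a second form of the pore (chromosome 1, 171216011 to 171222514, minus strand), was at 76.5, 61.7 and 50.5 CPM in WT and at 60.4, 69.4 and 70.4 CPM in LSD1-mKO. WT alone spanned both the highest and the lowest of its 6 values, and its log2 fold change was 0.09 (interval -0.25 to 0.43). Of the 5135 exon bases of Tomm40l, 3304 are shared with Nr1i3 on the opposite strand, and the library kits that the sources name do not mark strand.

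Tomm20, the receptor that binds presequences (chromosome 8, 126930667 to 126945844, minus strand), was at 187.8, 157.6 and 162.9 CPM in WT and at 173.9, 161.9 and 182.9 CPM in LSD1-mKO. The LSD1-mKO values lay inside the WT range, with a log2 fold change of 0.03 (interval -0.19 to 0.25). Tomm34, a cytosolic cochaperone that handles precursors before the pore, was at 16.9, 16.3 and 18.03 CPM in WT and at 19.0, 18.7 and 18.8 CPM in LSD1-mKO. The groups did not overlap, LSD1-mKO being higher, but the difference was small (log2 fold change 0.14, interval -0.08 to 0.37, edgeR adjusted p = 0.8052; exact permutation test, 2-sided, p = 0.1, a floor set by 3 mice per group). The remaining TOM genes tested were the receptors Tomm22 and Tomm70a and the small subunits Tomm5, Tomm6 and Tomm7, at log2 fold changes from -0.08 for Tomm6 to 0.06 for Tomm22. Tomm6 shares exon bases with its antisense transcript Tomm6os and with Gm21981, and its estimated counts were fractional in all 6 libraries. Tomm6os was at 1.20, 1.41 and 1.04 CPM in WT and at 0.69, 1.20 and 1.04 CPM in LSD1-mKO, too low to bound its log2 fold change of -0.35 (interval -1.16 to 0.46). Tomm20l, a Tomm20-like gene, had 1 count in LSD1-mKO replicate 1 and 0 in the other 5 libraries, at or under the floor of 3 counts, and gets no fold.

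Across the SAM complex and metaxins, which insert barrel proteins and bridge to the inner membrane, 1 of 4 genes was higher in the fit and 3 were lower, with a median log2 fold change of -0.08. Samm50, the SAM pore (chromosome 15, 84192241 to 84217267, plus strand), was at 312.5, 270.5 and 250.5 CPM in WT and at 266.3, 263.5 and 296.7 CPM in LSD1-mKO. The LSD1-mKO values again lay inside the WT range, with a log2 fold change of -0.01 (interval -0.26 to 0.23). Mtx1 (chromosome 3, 89209081 to 89227088, minus strand) was at 25.4, 19.9 and 21.5 CPM in WT and at 19.6, 19.7 and 19.0 CPM in LSD1-mKO. Every LSD1-mKO mouse was below every WT mouse, but by less than 1 CPM from WT replicate 2 (log2 fold change -0.19, interval -0.45 to 0.07, edgeR adjusted p = 0.7788; exact permutation test, 2-sided, p = 0.1). Without WT replicate 1 the log2 fold change of Mtx1 was -0.09. Mtx1 shares 759 exon bases with Gm43737 and 318 with Thbs3, both on the opposite strand. The other metaxins were at 0.07 for Mtx2 and -0.15 for Mtx3.

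Grpel2, described with the motor below, was the other gene whose groups did not overlap, so these were 3 of the 37 import genes, Tomm34 and Grpel2 higher and Mtx1 lower. Among all genes tested, 12.7% did not overlap, 6.62% with LSD1-mKO higher and 6.1% with LSD1-mKO lower. A count of 3 of 37 is below that background share.

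**Figure D2:**
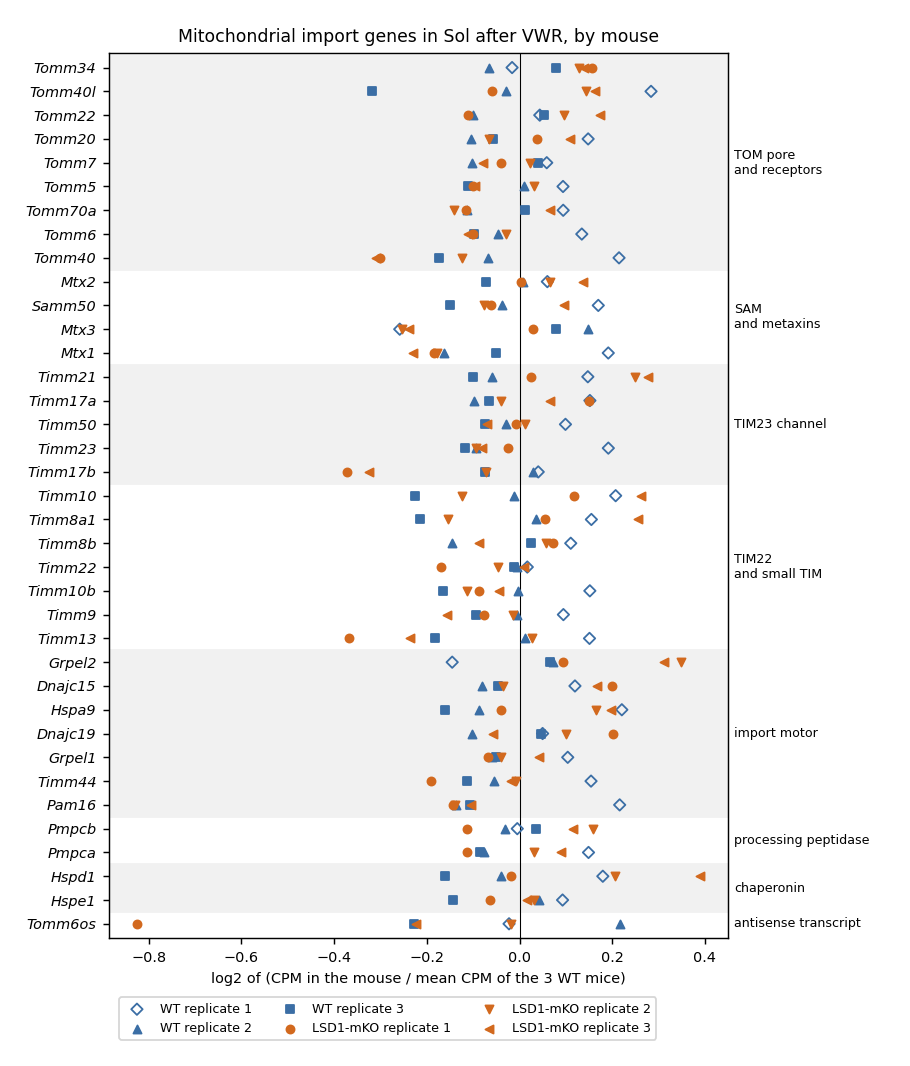
Level of each import gene in each mouse as log2 of its CPM over the mean CPM of the 3 WT mice (x axis; blue, WT; orange, LSD1-mKO; the symbol gives the replicate), ordered by role. Orange and blue symbols mix for all genes but Tomm34, Grpel2 and Mtx1, and the open diamonds of WT replicate 1 lie farthest right for 24 of the 37 genes on this scale.

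At the inner membrane, the 5 TIM23 channel genes had a median log2 fold change of -0.02. Timm23, the channel itself (chromosome 14, 32180162 to 32201898, minus strand), was at 333.9, 274.1 and 269.3 CPM in WT and at 287.3, 274.0 and 276.6 CPM in LSD1-mKO. WT replicate 1 was above the other mice, which were close together (log2 fold change -0.07, interval -0.30 to 0.17). Timm17b, one of the alternative Timm17 subunits beside the channel (chromosome X, 7899357 to 7908351, plus strand), was at 24.7, 24.5 and 22.8 CPM in WT and at 18.6, 22.9 and 19.2 CPM in LSD1-mKO. LSD1-mKO replicates 1 and 3 were below all WT mice, while LSD1-mKO replicate 2 was just above WT replicate 3. Its log2 fold change of -0.25 (interval -0.50 to 0.01, edgeR adjusted p = 0.7664) had the smallest unadjusted p of the import genes. Timm17a, the other Timm17 subunit (chromosome 1, 135295213 to 135313778, minus strand), was at 169.3, 142.3 and 145.5 CPM in WT and at 169.0, 148.3 and 159.6 CPM in LSD1-mKO. Its LSD1-mKO values were inside the WT range (log2 fold change 0.06, interval -0.16 to 0.29). Timm21, which links TOM to TIM23, was at 36.2, 31.3 and 30.5 CPM in WT and at 33.2, 38.8 and 39.6 CPM in LSD1-mKO. LSD1-mKO replicates 2 and 3 were above every WT mouse and replicate 1 was below WT replicate 1 (log2 fold change 0.19, interval -0.06 to 0.44). Timm50, the receptor of the channel, had a log2 fold change of -0.02.

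The carrier pathway had 7 genes tested, with 3 higher and 4 lower in the fit and a median log2 fold change of -0.07. Timm22, the carrier translocase (chromosome 11, 76406952 to 76416292, plus strand), was at 35.7, 35.1 and 35.0 CPM in WT and at 31.4, 34.2 and 35.5 CPM in LSD1-mKO. The WT mice were within 1 CPM of each other and LSD1-mKO replicate 3 was among them (log2 fold change -0.07, interval -0.27 to 0.13). Timm10, a small TIM chaperone of the space between the membranes, was at 23.4, 20.1 and 17.3 CPM in WT and at 21.97, 18.6 and 24.3 CPM in LSD1-mKO. Both groups covered most of the same range (log2 fold change 0.10, interval -0.24 to 0.43). Timm8a1, whose product works as a small TIM chaperone too, was at 23.9, 21.97 and 18.5 CPM in WT and at 22.3, 19.2 and 25.6 CPM in LSD1-mKO, again mixed (log2 fold change 0.06, interval -0.26 to 0.38). The remaining small TIM genes had log2 fold changes of 0.02 for Timm8b, -0.08 for Timm9 and Timm10b, and -0.18 for Timm13, none past the test. Timm8a2, a copy related to Timm8a1, had 1 count in each of LSD1-mKO replicates 2 and 3 and 0 in the other 4 libraries, under the floor of 3 counts.

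The import motor was the role with the highest median among those with more than 2 genes, at 0.09, with 4 of 7 genes higher in the fit and none past the test. Hspa9, the matrix Hsp70 (chromosome 18, 34937414 to 34954357, minus strand), was at 793.4, 640.5 and 608.9 CPM in WT and at 662.5, 763.2 and 781.1 CPM in LSD1-mKO. WT replicate 1 was the highest of the 6 mice and WT replicates 2 and 3 were the lowest, which gave a log2 fold change of 0.11 (interval -0.18 to 0.41, edgeR adjusted p = 0.89). Grpel2, an exchange factor that resets Hspa9 between cycles (chromosome 18, 61712424 to 61726325, minus strand), was at 17.4, 20.2 and 20.1 CPM in WT and at 20.5, 24.5 and 23.8 CPM in LSD1-mKO. The 3 LSD1-mKO mice were above the 3 WT mice, the lowest of them by less than 1 CPM (log2 fold change 0.25, interval -0.01 to 0.51, edgeR p = 0.0559, adjusted p = 0.7664; exact permutation test, 2-sided, p = 0.1). Its paralog Grpel1, the more abundant exchange factor by counts, was at 99.6, 89.0 and 89.5 CPM in WT and at 88.5, 90.1 and 95.4 CPM in LSD1-mKO. Here the ranges overlapped throughout (log2 fold change -0.02, interval -0.21 to 0.17). Dnajc15, a J-domain protein that stimulates Hspa9, was at 46.1, 40.1 and 41.0 CPM in WT and at 48.7, 41.3 and 47.6 CPM in LSD1-mKO. Its paralog Dnajc19 was at 45.2, 40.7 and 45.1 CPM in WT and at 50.2, 46.8 and 42.0 CPM in LSD1-mKO. Both overlapped between the groups, with log2 fold changes of 0.11 (interval -0.12 to 0.35) and 0.09 (interval -0.14 to 0.31). The tether Timm44 was at -0.07 and the J-like regulator Pam16 at -0.13.

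In the matrix, Pmpcb, the catalytic subunit of the processing peptidase (chromosome 5, 21737141 to 21757152, plus strand), was at 116.6, 114.4 and 119.9 CPM in WT and at 108.2, 130.6 and 126.8 CPM in LSD1-mKO. LSD1-mKO supplied both the lowest and the highest mouse (log2 fold change 0.06, interval -0.16 to 0.27), and its partner Pmpca was at 0.01. Hspd1, the chaperonin ring protein Hsp60, was at 252.9, 217.1 and 199.8 CPM in WT and at 220.3, 257.7 and 292.4 CPM in LSD1-mKO. LSD1-mKO replicates 2 and 3 were above all WT mice, and LSD1-mKO replicate 1 was below WT replicate 1 (log2 fold change 0.20, interval -0.10 to 0.50, edgeR adjusted p = 0.7848). Hspe1, the lid protein Hsp10 of the same chaperonin, was at 95.7, 92.4 and 81.2 CPM in WT and at 85.8, 91.7 and 90.8 CPM in LSD1-mKO. The LSD1-mKO mice were within the WT range, with a log2 fold change of 0.00 (fitted value -0.0046, interval -0.21 to 0.20).

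Hspd1 and Hspe1 lie head to head on chromosome 1, Hspd1 on the minus strand from 55077835 to 55088243 and Hspe1 on the plus strand from 55088132 to 55091307, and share 112 exon bases where their 5′ ends overlap. RefSeq promoter windows (250 bases before to 50 after a start, GRCm38.p6) need not begin at the ends of these spans, and Hspd1 has 2 of them, for starts at 55088243 and 55087932. The window of the second start, 311 bases inside the span, overlaps that of Hspe1, whose start is 55088148. The overlap holds a heat shock element, the site of heat shock factors, here searched on both strands as TTC, 2 bases of any kind, GAA, again 2 bases of any kind, and TTC. The stretch is shown because it falls in windows of both genes. It holds 2 overlapping matches, at 55088059 to 55088071, in capitals in the line of Hspe1, and at 55088064 to 55088076, in capitals in that of Hspd1, each line read on its own gene's strand.
Hspe1, chr1:55088051-55088080, plus strand: acggtccgTTCTAGAACCTTCcggaaggcc
Hspd1, chr1:55088055-55088084, minus strand: gcggggccTTCCGGAAGGTTCtagaacgga
The element was present in 3 of 37 promoter windows of import genes (8.11%), the third being that of Timm9, and in 0.603% of 32851 windows of all genes. It was added to the search after the promoter of this pair had been read, and the windows of Hspd1 and Hspe1 hold the same stretch. The share among import genes therefore cannot be compared with that of all genes. The fold changes of these 3 genes were 0.20, 0.00 and -0.08 on the log2 scale, so they did not share a direction.

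The motifs of other factors known to act at nuclear genes of mitochondria were searched in the same windows, which matched 34 of the 39 genes (all but Grpel2, Hspa9, Timm21, Tomm40l and Tomm7). The NRF1 motif (GCGC, any base, then TGCGC, on either strand) was in 4 of the 37 windows (10.8%) and in 4.6% of all windows, and that of Tomm20, 20 bases before the start, is shown as an example.
Tomm20, chr8:126945922-126945951, minus strand: gggtccatctGCGCGTGCGCaccaggcgtt
The other 3 were Hspd1, Timm8b and Pam16. The 4 genes had log2 fold changes of 0.03, 0.20, 0.02 and -0.13 in that order. The motif of the estrogen-related receptors, TNAAGGTCA, was in 1 window (2.7%), against 1.28% of all windows, 96 bases before the start of Timm8b.
Timm8b, chr9:50603795-50603824, plus strand: tttcgagggcTCAAGGTCActctacaaccc
Timm8b was at 73.6, 61.6 and 69.3 CPM in WT and at 71.7, 70.9 and 64.1 CPM in LSD1-mKO, with the groups mixed. The YY1 motif AAGATGGCG was in 3 windows (8.11%), against 1.4% of all windows, and 2 of these belong to metaxins. The start of Mtx1 used here lies 13181 bases inside its annotated span.
Mtx1, chr3:89213877-89213906, minus strand: gagagcgtacAAGATGGCGgcgcccatgga
Mtx3, chr13:92844774-92844803, plus strand: cagccccggcAAGATGGCGgcccccatgga
Timm50, chr7:28312016-28312045, minus strand: gcgtcagcgcAAGATGGCGgcctcggcggc
All 3 matches begin at base 12 to 17, with the start counted as base 1. The motif as searched holds the letters of a start codon, so every match does. Their genes were lower in the fit, at -0.19, -0.15 and -0.02, with none past the test. A match is a description of these letters and not of binding.

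Several import genes exist as paralog pairs, and the ratio of their counts within a library does not depend on the scaling. Tomm40/Tomm40l was 0.830, 0.847 and 0.961 in WT and 0.737, 0.724 and 0.627 in LSD1-mKO. All LSD1-mKO ratios were below all WT ratios, by a mean of -0.34 on the log2 scale (exact permutation test, 2-sided, p = 0.1), and the difference was between -0.38 and -0.27 when each mouse was left out. Grpel1/Grpel2 was 5.74, 4.41 and 4.46 in WT and 4.32, 3.68 and 4.00 in LSD1-mKO, which also did not overlap. The log2 difference was -0.28 (exact permutation test, 2-sided, p = 0.1), but -0.15 without WT replicate 1. Timm17a/Timm17b was 6.85, 5.80 and 6.37 in WT and 9.10, 6.48 and 8.32 in LSD1-mKO, with LSD1-mKO replicate 2 below WT replicate 1. Its log2 difference of 0.32 (exact permutation test, 2-sided, p = 0.2) was between 0.22 and 0.46 when each mouse was left out. Dnajc15/Dnajc19 and Timm8a1/Timm8b differed by 0.03 and 0.04 (exact permutation tests, 2-sided, p = 1.0 and p = 0.9), and both pairs overlapped. Of 5 pairs, 2 did not overlap, while of the 630 ratios between any 2 of the import genes 17.0% did not. With 3 mice per group no p can fall under 0.1, so none of the 5 can pass 0.05, adjusted or not. The estimated counts of Tomm40l, Grpel1, Dnajc19 and Timm8b were fractional in all 6 libraries, and Tomm40, Grpel1 and Timm17b share 258, 411 and 117 exon bases with Gm20512, Tada2b and Gm10491 on the opposite strand, so how reads were divided in these pairs is uncertain.

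**Figure D3:**
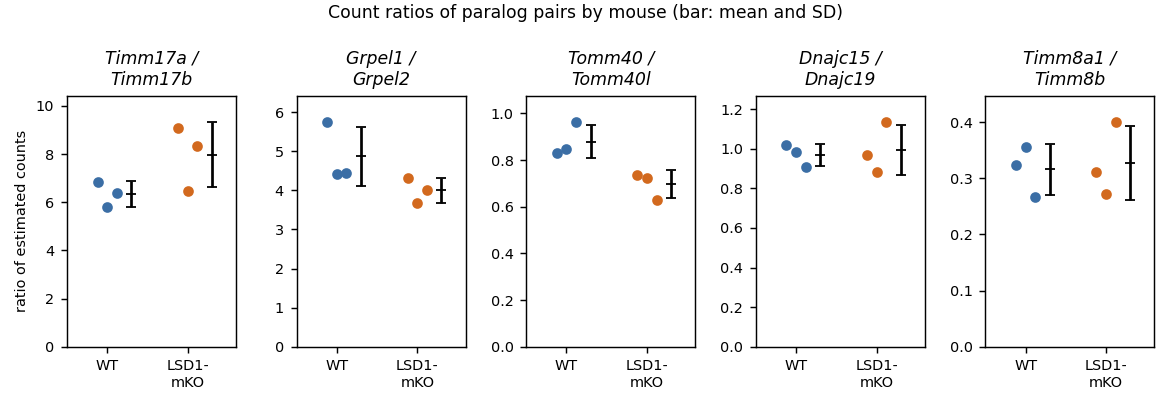
Ratio of the estimated counts of the first gene to those of the second in each mouse, for 5 paralog pairs (points; bars are the mean ± SD of 3 mice; y axes start at 0). Tomm40/Tomm40l and Grpel1/Grpel2 are lower in all 3 LSD1-mKO mice than in any WT mouse, and the other pairs overlap.

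Per transcript length, the import genes spanned a wide range of levels. With the longest protein-coding transcript as the length, Timm23 was highest at a mean of 538.6 TPM over the 6 mice (516.7 to 581.9), followed by Hspa9 at 513.2 TPM (450.0 to 567.6), ranges that overlap. Timm8b was at 292.5 TPM and Hspe1 at 256.4 TPM, with ranges from 274.2 to 303.5 and from 236.4 to 283.9 that also meet, and Hspd1 was next at 219.1 TPM. At the other end were Grpel2 at 11.6 TPM and Mtx3 at 9.05 TPM, above only Tomm6os, Timm8a2 and Tomm20l. With the median transcript length, Timm23 was again first (521.9 TPM) and Mtx3 again lowest of the protein-coding genes tested (5.80 TPM), but Timm17a went from rank 21 (47.3 TPM, length 7280 bases) to rank 3 (347.3 TPM, length 636 bases). The order in between therefore depends on which transcript the muscle uses, which these counts do not show. The fold changes compare each gene with itself and do not depend on that length, whereas the summed TPM above does. Summed in CPM, the 39 genes were at 3752, 3234 and 3151 in WT and at 3281, 3471 and 3596 in LSD1-mKO, so that every LSD1-mKO sum lay inside the WT range and their mean was 102.1% of that in WT.

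**Figure D4:**
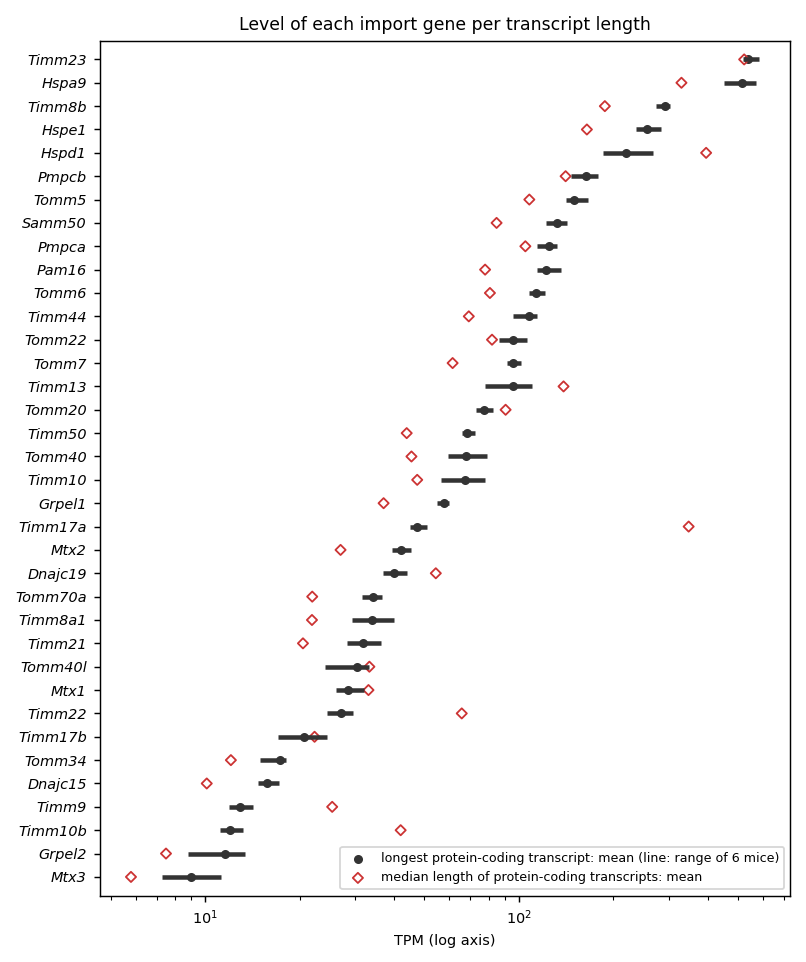
Mean level of 36 import genes (Tomm6os, Timm8a2 and Tomm20l left out) in TPM over 6 mice (log x axis; black points and range lines, longest transcript; red diamonds, median transcript length). Timm23 is at the top with both lengths, and Timm17a moves from 47.3 to 347.3 TPM.

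WT replicate 1 bore on most of these values. It was the highest of the 6 mice for 24 of the 37 import genes (64.86%), which held for 23.41% of all genes tested and 30.35% of those at 15 CPM or more. With DESeq2 size factors the count was again 24, but scaled by library size alone it was 6 of 37 (16.22%, beside 10.58% of genes at 15 CPM or more). WT replicate 2 was then the highest for 13 (35.14%, beside 35.17% of all genes tested and 32.63% of those at 15 CPM or more). In related lists described below, WT replicate 1 was highest after TMM scaling for 10 of 12 proteases and prohibitins (83.33%). The same held for 7 of 14 import partners, 4 of 8 MICOS subunits and 1 of 10 cytosolic chaperones of precursors. The same mouse had the lowest summed fibroblast markers, 943 CPM against 2593 and 3054 CPM in the other WT mice and 2033, 1096 and 1187 CPM in LSD1-mKO, and the lowest summed immune markers, 21.7 against 92.8 and 74.1 CPM and 60.7, 26.8 and 36.2 CPM. All 5 fibroblast genes were detected, and of the 5 immune genes only Cd3e was too low to test. WT replicate 1 also had the lowest summed endothelial (404 CPM), adipocyte (125 CPM) and red blood cell (201.2 CPM) markers. Its Schwann cell (140 CPM) and satellite cell (7.35 CPM) sums were not the lowest. Its fast fiber sum (48610 CPM) was the highest, and its slow fiber sum (32480 CPM) was not. The part of these markers in the import gene levels was not tested. Without WT replicate 1, 25 of the 37 were higher in the fit, beside 47.4% of all genes, and the median log2 fold change was 0.05. In that fit 3 were higher at an unadjusted edgeR p under 0.05 (background 6.43%, with 7.98% lower), Hspa9 (0.24), Hspd1 (0.30) and Timm21 (0.27), and none passed the adjusted threshold. Without that mouse 9 of the 37 (24.3%) had groups apart from each other, beside 33.6% of all genes tested. Leaving out WT replicate 3 moved the fit the other way, with 13 of the 37 higher and a median log2 fold change of -0.05. The share over all genes was not taken for that fit. After TMM scaling WT replicate 3 was the lowest mouse for 13 of the 37 (35.14%, beside 16.43% of all genes tested and 20.92% of those at 15 CPM or more).

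**Figure D5:**
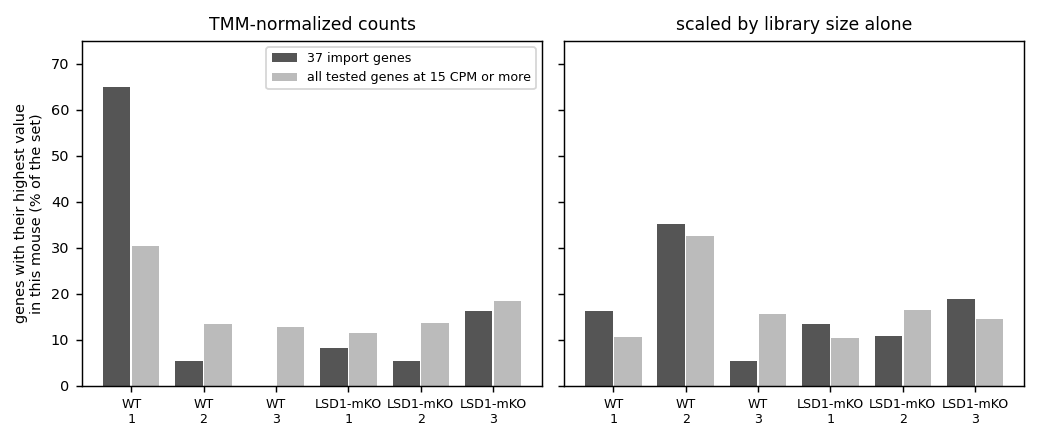
Share of genes whose highest value is in each mouse (y axis, %), for the 37 import genes and for all tested genes at 15 CPM or more, after TMM scaling (left) and after scaling by library size alone (right). WT replicate 1 holds 64.86% of the import genes on the left and 16.22% on the right.

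The markers of the other cell types overlapped between the groups. Their summed levels in WT and in LSD1-mKO were 404 to 598.8 and 434.8 to 526.2 CPM for endothelial cells, 125 to 193.4 and 139.1 to 176.2 CPM for adipocytes, 140 to 156.1 and 135 to 159.4 CPM for Schwann cells, 201.2 to 534.7 and 259.8 to 420 CPM for red blood cells, and 6.40 to 9.72 and 7.74 to 12.3 CPM for satellite cells, where Calcr was too low to test. None of these markers or of the fiber markers passed the adjusted threshold. The fast fiber marker Actn3 (log2 fold change 1.503) and the red blood cell marker Hba-a1 (3.95) were higher at an unadjusted edgeR p under 0.05 (background 3.52%). Both overlapped between the groups, and Hba-a1 was at 13.6, 5.75 and 0.0018 CPM in WT and at 2.57, 78.0 and 202.4 CPM in LSD1-mKO. In the fit, 1 of 5 red blood cell markers was higher and 4 were lower, and of 6 fast fiber markers 3 were higher and 3 lower. Higher were also 5 of 6 slow fiber, 3 of 5 endothelial, 3 of 5 adipocyte, 1 of 5 Schwann and 2 of 2 satellite cell markers. All 5 fibroblast and all 4 tested immune markers were lower (median log2 fold changes -0.51 and -0.57), with overlapping groups and 0 at an unadjusted edgeR p under 0.05.

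Genes that work beside the import machinery were likewise without a call, adjusted or unadjusted. Of 14 import partners, such as the oxidative folding enzymes Chchd4 and Gfer, the insertase Oxa1l and the inner membrane peptidases Immp1l and Immp2l, 10 were higher in the fit, with a median log2 fold change of 0.04. Of 12 mitochondrial proteases and prohibitins 7 were higher (median 0.02), of 8 subunits of MICOS, the complex that shapes cristae, 4 were higher (median 0.01), and of 10 cytosolic chaperones of precursors 7 were higher (median 0.10). Beside these, 45.22% of all genes tested and 50.19% of those at 15 CPM or more were higher in the fit. Whether the lists differ from that share was not tested. The groups did not overlap for Immp2l (0.27), Apoo (0.14) and Hsp90aa1 (0.19), all higher, and for Gfer (-0.19) and Phb2 (-0.13), both lower, which is 5 of these 44 genes beside the background of 12.7%.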

How the data were processed

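Libraries of Sol poly(A) RNA gave single-end reads of 75 bases, which STAR placed on mm10. The authors deposited the resulting table as estimated counts without scaling. In each library under 10% of these were not whole. The counting tool and annotation are not given in the sources used here. The authors' DESeq2 table of log2 fold changes and p-values was not used. The genes and lists were chosen with earlier results of these data known.

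Counts were rounded and tested with edgeR 4.0.16 in R 4.3.3 (TMM, filterByExpr by genotype, quasi-likelihood, Benjamini-Hochberg over 12828 genes, threshold 0.05, no covariate), a procedure also run on simulated data. DESeq2 1.42.0, limma 3.58.1 (voom), other scalings and filters, a replicate block and each mouse left out were alternatives. Described by mouse were genes at an unadjusted p under 0.05 or without overlap, lead genes set by role (Tomm40, Tomm20, Samm50, Timm23, Timm22, Timm10, Hspa9, Pmpcb, Hspd1), and paralog pairs. Hspe1, Timm21, Tomm6os and the gene names given for the related lists fall outside this rule and were chosen after their values were seen. TPM used GENCODE vM21 lengths (99.69% of counts). Each library is 1 mouse. Reads amplified by PCR are not independent molecules, so the floor covers counting error only. No 2 libraries were as similar as repeated draws (chi-square per gene at least 9.97). Protein sequences were not analysed here.

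Exon overlap was taken from the same annotation: 20 of the 39 genes share exon bases with another gene, 18 of them on the opposite strand, and 7 had fractional counts in all libraries.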

Additional observations from a re-analysis of the deposited data

How the results depend on the processing

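No import gene passed the adjusted threshold under any alternative. At an unadjusted p under 0.05, 1 gene was higher with DESeq2 size factors and 1 with no filter on low counts (Grpel2 in both), and 1 was lower with library size alone (Tomm40). With each mouse left out, 0 to 3 were higher (3 without WT replicate 1), 0 to 1 were lower (Tomm40 without WT replicate 3, Timm17b without LSD1-mKO replicate 2), and 4 to 9 did not overlap (3 with all mice), where fewer mice make this easier (10.8% to 24.3% of the 37, beside 18.1% to 33.6% of all genes tested). Shares of all genes at an unadjusted p under 0.05 were taken only for the main fit (3.52% higher, 2.88% lower), DESeq2 and the fit without WT replicate 1 (6.43% and 7.98%). The counts at that p under the other settings have no share beside them and are not read against a background. The median log2 fold change was -0.0489 to 0.0456 with each mouse left out and -0.0301 to 0.0111 under the others. With the replicate number as a block it was -0.0083 with 0 genes at an unadjusted p under 0.05. Mice of the same number did not correlate positively between the groups (-0.352, -0.107 and -0.15). With 3 mice per group these values cannot tell whether the numbers pair the mice. With the block Kdm1a was at -1.23 with an adjusted edgeR p of 0.2994. Of 273 comparisons for 21 named genes 22 changed sign, none of them called. These were Hspe1 with DESeq2 size factors (0.0031), no filter (0.0111) and DESeq2 (0.0035), Samm50 with no filter (0.0029), Timm8b with library size alone (-0.0004), and 17 with a mouse left out. The ranges of the latter were -0.0517 to 0.0356 for Grpel1, -0.0719 to 0.0456 for Hspe1, -0.081 to 0.0825 for Samm50, -0.1218 to 0.0419 for Timm23, -0.0497 to 0.0771 for Timm8b, -0.0194 to 0.1113 for Tomm20, -0.006 to 0.2084 for Timm10, -0.0424 to 0.1685 for Timm8a1 and -0.0489 to 0.2529 for Tomm40l. The 21 genes leave out others named above. With a mouse left out, signs also changed for Timm50 (-0.0561 to 0.033), Timm44 (-0.1227 to 0.0155) and Pmpca (-0.037 to 0.0876). The same held for Tomm22 (-0.002 to 0.1369), Timm10b (-0.1546 to 0.0031) and Tomm7 (-0.0781 to 0.0014). The cause was not tested. With 3 mice per group, the median interval reached 0.23 on the log2 scale to either side of its estimate.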
